A study of Mus musculus with 35 samples.

Results

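Trh, Rasgrp2, 1700097N02Rik and Gm26564 are 4 of the 44853 genes in the induction table of this mouse ES cell series. They were chosen by measured values, namely for the largest falls of transcript at 16 h or 168 h after GATA6 was switched on, so their falls against the untreated cells are described below without a test. The table of the siRNA experiment, with 6275 genes, holds 1 of the 4, Rasgrp2. The cells were KH2 ES cells (C57BL/6 x 129/Sv) with a Dox-inducible Gata6 cassette, a transcription factor of the primitive endoderm (PrE). They were grown with LIF and serum on mitomycin-treated feeder fibroblasts. Before lysis the feeders were adsorbed to plastic, and how many remained is not given. The induction experiment compared cells without treatment (0 h) with cells given Dox at 1 µg/mL for 16, 24, 48, 72, 96 or 168 h, with 3 libraries in each group, and with 2 libraries of the wild-type XEN line X10 (CD1), an extra-embryonic endoderm line kept without LIF. The siRNA experiment held 6 libraries with a control siRNA (siCTL) and 6 with an siRNA against Oct4 (siOct4), all from cells that carry the same cassette and received Dox for 48 h. A pair of independent inducible clones was selected for the study and the methods name a single clone for the siRNA experiment, so the induced cells stand for those clones, and XEN cells differ from them in strain and culture as well as in lineage.

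The members differ in kind. Trh encodes the precursor of thyrotropin-releasing hormone, a short peptide that prohormone convertases and amidating enzymes cut out of the precursor and that acts on G protein-coupled receptors, best known from the hypothalamus. Rasgrp2, also called CalDAG-GEFI, encodes a guanine nucleotide exchange factor that responds to calcium and diacylglycerol and activates the small GTPase RAP1, best known for switching on integrins in platelets. 1700097N02Rik and Gm26564 are long non-coding RNA (lncRNA) genes, for which no function is given here. ES cells express many such transcripts together with the pluripotency factors Nanog and Oct4 (the product of Pou5f1), and this programme is replaced by GATA4, SOX17 and other endoderm factors when GATA6 is induced.

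In the GENCODE M21 annotation (mm10), Trh is a gene of 3 exons at chr6:92242061-92244650 on the minus strand, and Rasgrp2 lies at chr19:6399340-6415216 on the plus strand with 24 annotated transcripts. 1700097N02Rik is annotated as a bidirectional-promoter lncRNA of 4 exons at chr17:30622441-30626905 on the minus strand, with a spliced length of 845 bases. Gm26564 is a lincRNA of 3 exons and 378 spliced bases at chr10:34230907-34233531 on the minus strand. The 250 bases upstream of the RefSeq start sites (GRCm38.p6) are shown for the 3 members whose start lies at or near the GENCODE gene start, as the stretches in which motifs of ES cell and endoderm factors were searched. Capitals mark 6-base matches to the SOX motif ACAAAG or the KLF and SP motif GGGCGG, on either strand, so that CTTTGT and CCGCCC are matches on the opposite strand.
Trh, chr6:92244651-92244900, minus strand: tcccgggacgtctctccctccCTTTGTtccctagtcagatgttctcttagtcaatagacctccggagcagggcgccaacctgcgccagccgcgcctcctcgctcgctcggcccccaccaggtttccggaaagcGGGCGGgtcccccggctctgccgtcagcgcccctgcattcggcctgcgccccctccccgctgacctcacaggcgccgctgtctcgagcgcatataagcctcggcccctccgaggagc
Rasgrp2, chr19:6399625-6399874, plus strand: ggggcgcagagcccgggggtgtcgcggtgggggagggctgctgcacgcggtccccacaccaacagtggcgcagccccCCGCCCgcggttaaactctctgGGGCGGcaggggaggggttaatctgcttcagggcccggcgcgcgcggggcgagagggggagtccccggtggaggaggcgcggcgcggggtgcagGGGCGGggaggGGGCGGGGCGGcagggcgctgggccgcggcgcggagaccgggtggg
1700097N02Rik, chr17:30626906-30627155, minus strand: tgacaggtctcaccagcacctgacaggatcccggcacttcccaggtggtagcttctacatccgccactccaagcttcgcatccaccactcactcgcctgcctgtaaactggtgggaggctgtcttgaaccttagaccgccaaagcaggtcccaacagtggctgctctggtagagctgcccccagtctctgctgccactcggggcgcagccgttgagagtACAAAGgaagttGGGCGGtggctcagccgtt

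The Rasgrp2 stretch was the richest in G and C, at 79.6% of its bases, and the Trh stretch stood at 68.8% and that of 1700097N02Rik at 60%. The SOX motif lay at position −229 from the start of Trh and at −31 from that of 1700097N02Rik, and it was present in 18.7% of the 32851 mouse promoter windows of 300 bases in the RefSeq table. Trh, Rasgrp2 and 1700097N02Rik all held GGGCGG, which was present in 35.7% of those windows. The windows of the 4 genes held no match to the octamer ATGCAAAT (1.74% of all windows), the GATA motif AGATAA (11.2%), the ESRRB motif AAGGTCA (4.72%) or TATAAA (13.6%). Each match is a run of letters and not a measured binding site. Gm26564 is not shown, since its RefSeq start lies 63893 bases from the GENCODE start of the same symbol and it was not tested which of these starts the transcript of these cells uses. The start of Rasgrp2 shown here lies 535 bases inside the GENCODE gene, and RefSeq gives it a further start downstream. The RefSeq gene itself begins upstream of the GENCODE gene, at 6398957, and no stretch is shown for that position.

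Values are deposited as TPM, the share of a gene among all transcripts of a library, corrected for transcript length, so that levels of different genes can be compared. TPM keeps no read numbers, so the depth behind each value is unknown and the spread between libraries is the error given. In such bulk libraries, fewer cells with a transcript and less transcript in each cell cannot be told apart. The transgene check went with the labels: Gata6 stood between 0.1929 and 0.3754 TPM at 0 h and was higher at 16 h by 6.74 ± 0.09 (SE) on the log2(TPM + 1) scale. The summed TPM of 10 ES markers fell from 9644 to 9884 at 0 h to 1801 to 2595 at 168 h and 17.4 to 21.1 in XEN cells. The 10 PrE markers rose from 41.2 to 55.1 at 0 h to 13901 to 14618 at 168 h. Genes of high TPM weigh most in such sums. The summed level of 10 fibroblast markers, for the feeder cells, was 39 to 120 TPM at 0 h and 134 to 296 at 168 h, with none of them at 0 throughout a group, and its part in the results was not tested.

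Trh fell early and went on falling. At 0 h it stood at 264.8, 286.7 and 295.8 TPM in the 3 libraries. At 16 h the libraries read 56.3, 63.4 and 48.6 TPM, so that the earliest time point kept 19.9% ± 2.6 (SD, n = 3) of the 0 h mean and the groups did not overlap. At 24 h they read 27.4, 27.4 and 58.2 TPM, and the third of these lay inside the 16 h range.
The decline continued after 24 h. Trh read 7.06, 4.71 and 5.77 TPM at 48 h. It then read 1.48, 1.98 and 0.618 TPM at 72 h. From 96 h on it was under 1 TPM in all libraries, at 0.538, 0.770 and 0.731 TPM at 96 h and 0.285, 0.619 and 0.760 TPM at 168 h. Those last groups overlapped, and both XEN libraries listed Trh at 0. The mean at 168 h, 0.196% of that at 0 h, was a 509-fold lower level, and on the log2(TPM + 1) scale the falls were −2.32 ± 0.24 (SE) at 16 h and −7.52 ± 0.24 at 168 h.

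Rasgrp2 started at a similar level and kept it for longer. Its libraries read 316.0, 315.5 and 379.7 TPM at 0 h and 361.1, 342.4 and 359.2 TPM at 16 h, and these ranges overlapped. The 16 h mean was 105% ± 3.1 (SD, n = 3) of the 0 h mean, a difference of 0.08 ± 0.21 (SE) on the log2 scale. At 24 h the libraries read 194.0, 187.9 and 255.9 TPM, all below those of the earlier groups.
A steep decline then followed. Rasgrp2 read 68.1, 50.6 and 64.1 TPM at 48 h and 11.2, 13.3 and 15.2 TPM at 72 h. At 96 h it read 6.07, 9.33 and 4.99 TPM, and at 168 h it read 2.63, 0.873 and 1.32 TPM. From 16 h on, each group lay wholly below the one before it. XEN cells held the lowest values, 0.172 and 0.324 TPM, which is 0.0735% of the 0 h mean and 6.48-fold below the 168 h mean. The fall from 0 to 168 h was 210-fold in TPM, or −7.07 ± 0.21 (SE) on the log2(TPM + 1) scale.

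The lncRNA genes were far less abundant than Trh and Rasgrp2 before induction and were lost by 48 h of Dox. 1700097N02Rik read 5.12, 4.15 and 8.92 TPM at 0 h and 0.395, 0.831 and 0.193 TPM at 16 h, a mean of 7.8% ± 5.4 (SD, n = 3) of the starting level with no overlap between the groups. It was listed at 0 in all libraries at 24, 96 and 168 h and in XEN cells. The few values above 0 between these times were 0.0813 TPM in 1 library at 48 h and 0.0304, 0.152 and 0.0912 TPM at 72 h. Its difference at 16 h was −2.23 ± 0.18 (SE) on the log2(TPM + 1) scale, a scale that understates the change of a gene this low.
Gm26564 was slightly higher, with 6.74, 11.3 and 12.4 TPM at 0 h and 1.21, 2.04 and 1.34 TPM at 16 h. The 16 h mean was 15.1% ± 4.4 (SD, n = 3) of that at 0 h and the groups did not overlap, a difference of −2.12 ± 0.26 (SE) on the log2(TPM + 1) scale. At 24 h, with 0.801, 1.15 and 1.6 TPM, it overlapped the 16 h range. It was then listed at 0 in each 48 h library, and at 72 h in 2 of the 3, with 1.47 TPM in the remaining library. Values of 0.0203 TPM in 1 library at 96 h and 1 at 168 h were the only others above 0, and XEN cells listed it at 0.

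**Figure D1:**
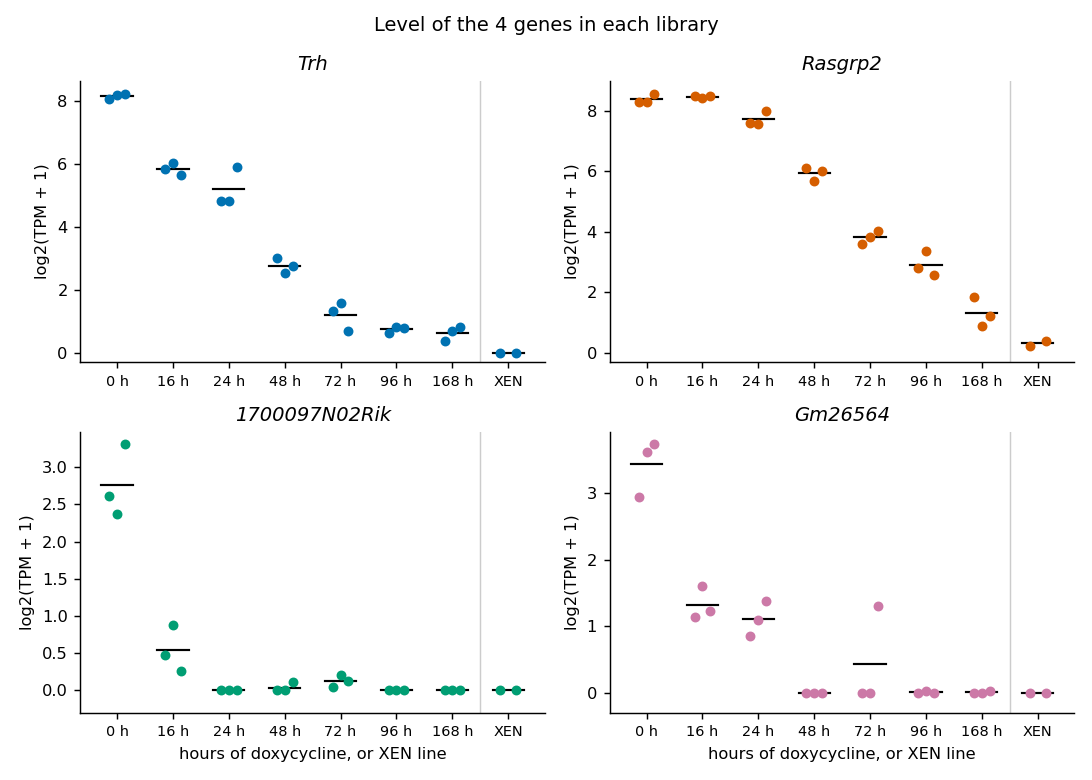
Level of each gene as log2(TPM + 1) (y axis) in each library (points) by hours of doxycycline or in the XEN line (x axis), with the group mean as a bar and a separate y scale in each panel. Trh was already low at 16 h, where its libraries read 48.6 to 63.4 TPM, Rasgrp2 fell from 24 h on, and the lncRNA genes were at or near 0 from 48 h apart from 1 library of Gm26564 at 72 h.

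The order of loss differed among the 4 genes although all ended near 0. This follows in part from the choice. Trh and the lncRNA genes were among the largest falls at 16 h, and Rasgrp2 was among the largest at 168 h only. At 16 h the share of the 0 h mean that was kept rose from 7.8% in 1700097N02Rik through 15.1% in Gm26564 and 19.9% in Trh to 105% in Rasgrp2. In this order 1700097N02Rik and Gm26564, and Gm26564 and Trh, lay within each other's spread, whereas Rasgrp2 stood apart. At 48 h Trh kept 2.07% ± 0.42 (SD, n = 3) and Rasgrp2 18.1% ± 2.7, and the 2 lncRNA genes were at or near 0. Nanog, one of the pluripotency factors that responds early, kept 34.2% ± 2.2 at 16 h and 9.88% ± 2.8 at 48 h, above Trh both times. Pou5f1 was below Rasgrp2 at 16 h and kept the largest share of those compared from 48 h on, at 81.7% ± 2.55 at 16 h, 70.7% ± 2.48 at 48 h and 3.83% ± 2.54 at 168 h. Of 9514 genes with at least 5 TPM at 0 h, the median gene kept 101% at 16 h and 99.9% at 168 h, and 104 of them (1.09%) kept under 1% at 168 h.

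**Figure D2:**
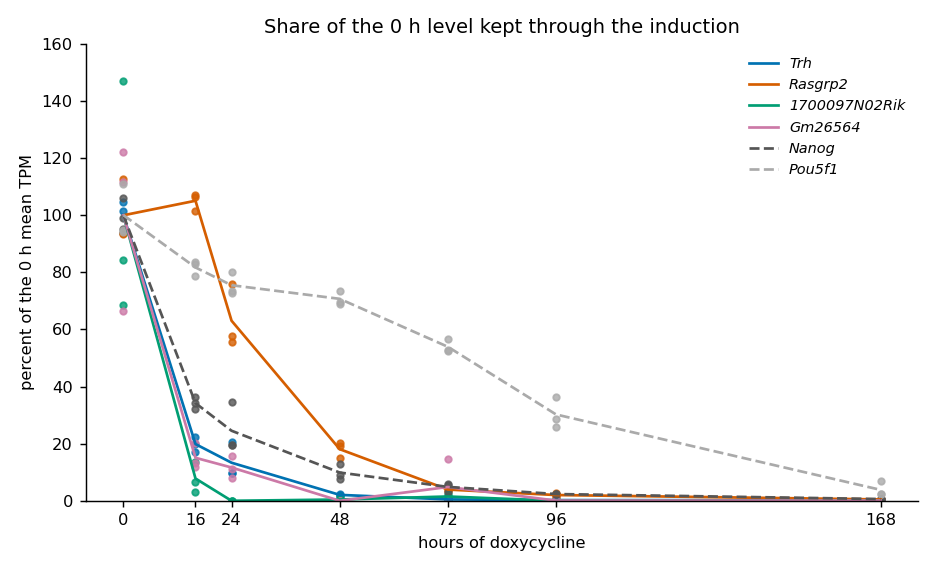
Percent of the 0 h mean TPM (y axis) against hours of doxycycline (x axis) for the 4 genes and, as dashed lines, for Nanog and Pou5f1. Points are libraries and lines join group means. At 16 h Trh and the lncRNA genes kept between 7.8% and 19.9%, whereas Rasgrp2 kept 105% and Pou5f1 81.7%. The falls at 16 h and 168 h chose the members.

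The third library at 24 h had the highest Trh and Rasgrp2 of its group. It also held the highest ES marker sum, 8119 TPM against 6981 and 7245, and the lowest PrE marker sum, 951.6 TPM against 1358 and 1376, and the part of this difference in the member values was not tested. At 168 h the third library had 111.9 TPM of Pou5f1 in a group whose lowest value was 39.1, and it had the highest ES and fibroblast marker sums, 2595 and 296.2 TPM. It also held the highest Trh and the only Gm26564 value above 0 of that group, whereas Rasgrp2 was highest in the first library.

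These falls were the basis of the choice and their ranks describe it. A fall was eligible where limma gave an adjusted p under 0.05 with a log2 change below −1, the libraries of the groups did not overlap and at least 1 group had a mean of 5 TPM. At 16 h 0.804% of the 15057 genes tested were called lower and 1.97% higher by the first part of that rule, and 3 of the 4 members were among the lower ones. At 168 h 16.5% were lower and 22.6% higher, and all 4 members were lower. The members passed the filter on low values, which asked for a mean of 1 TPM in some group, and 1700097N02Rik passed it only through its 0 h libraries, so these counts carry no weight. Trh, 1700097N02Rik and Gm26564 ranked 3, 4 and 5 among 86 eligible falls at 16 h. Gm28625 (−3.66 ± 1.15 SE) and Foxd3 (−2.46 ± 0.15) stood ahead of them and are not members, and Otx2 (−2.06), Tgm3 (−1.98) and Accsl (−1.94) came next. At 168 h Trh ranked 1 and Rasgrp2 ranked 4 of 1753 eligible falls. Tdgf1 (−7.43) and Gm28625 (−7.28) stood between them and Krt42 (−6.93), Gm46332 (−6.89) and Nr0b1 (−6.89) came next. Gm26564 and 1700097N02Rik stood at places 222 and 398 at 168 h.

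The steps between 24, 48, 72 and 96 h and from 96 h to XEN cells have group means that use no library of the contrasts that chose the members. They were tested with limma over all 23 libraries, whose spread the fit shares, with p-values adjusted over 15057 genes. With the compared groups alone, which leaves out the libraries of 0, 16 and 168 h, the p-values were larger and every call or absence of a call of Trh and Rasgrp2 at the steps where they passed the filter was kept, with adjusted p = 8.01e-04 for Trh and 1.58e-04 for Rasgrp2 from 24 to 48 h, 0.0185 and 0.0034 from 48 to 72 h, and 2.37e-04 for Rasgrp2 against XEN cells (limma). A gene that is high at 0 h and near 0 at 168 h has to fall somewhere between, so the tests say when it fell. From 24 to 48 h, 2.44% of all genes were called lower. Trh fell by 2.42 ± 0.24 (SE) on the log2(TPM + 1) scale (limma, adjusted p = 4.75e-07) and Rasgrp2 by 1.78 ± 0.21 (limma, adjusted p = 3.01e-06), each with all 48 h libraries below all 24 h libraries. Gm26564, listed at 0 throughout the 48 h group, was also called lower (limma, adjusted p = 0.00269), a call that was lost without the third 24 h library (adjusted p = 0.0177, with a change short of the log2 limit of 1).

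From 48 to 72 h, 1.38% of all genes were called lower. Rasgrp2 fell by 2.12 ± 0.21 (SE; limma, adjusted p = 1.76e-06) and Trh by 1.57 ± 0.24 (limma, adjusted p = 1.12e-04), and again no libraries overlapped. From 72 to 96 h, 1.04% were called lower and no member was among them. Rasgrp2 differed by −0.90 ± 0.21 (SE; limma, adjusted p = 0.00923), just short of the log2 limit, and it passed that limit without the second 96 h library (−1.12) or without the first 72 h library (−1.01). Trh differed by −0.45 ± 0.24 (limma, adjusted p = 0.208) with overlapping libraries.

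XEN cells lay below the 96 h cells for 8.75% of all genes. Rasgrp2 was lower there by 2.61 ± 0.23 (SE; limma, adjusted p = 2.51e-08), a 27.4-fold difference in mean TPM from 6.8 ± 2.3 (SD, n = 3) to 0.248 ± 0.107 (SD, n = 2). For Trh, which was under 1 TPM at 96 h and at 0 in XEN cells, the difference was not called (limma, adjusted p = 0.0274 with a change short of the log2 limit). On the log2(TPM + 0.1) scale it was. 1700097N02Rik had no called step among the 4, as it was already at 0 at 24 h.

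**Figure D3:**
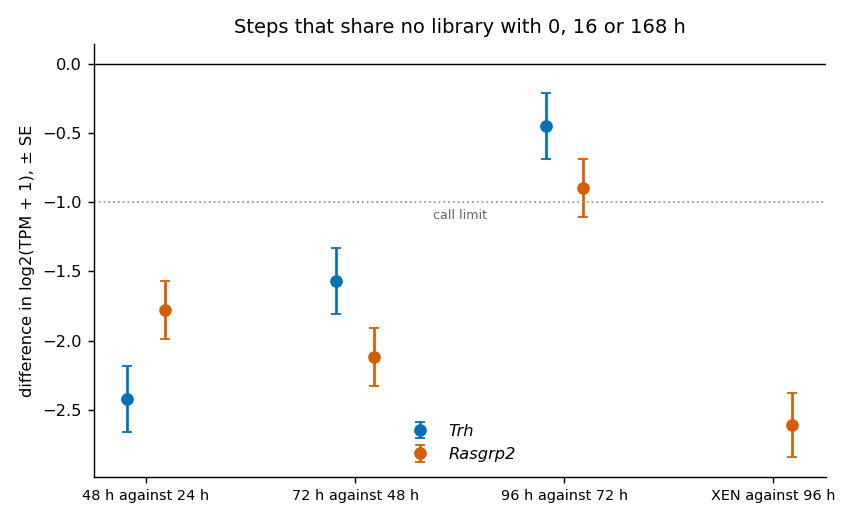
Difference in log2(TPM + 1) (y axis) of Trh and Rasgrp2 for each step tested (x axis), as the limma estimate with its SE. Both lay below the dotted call limit of −1 from 24 to 48 h and from 48 to 72 h, and Rasgrp2 did so again between 96 h and XEN cells. Trh has no point there because XEN cells listed it at 0.

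Neighbouring genes were looked at next. Of 24 neighbouring genes, the 3 nearest on each side of each member, 17 passed the filter. At 16 h 1 was called lower (Dnah8) and 1 higher (Prickle2), against 0.804% and 1.97% of all genes, counts too small to read. At 168 h 3 were lower (Nrxn2, Glo1 and Dnah8), which is 17.6% against 16.5% of all genes, and 2 higher (Zfand3 and Dse), which is 11.8% against 22.6%, so the share of lower calls was near the background. The median log2 change of the 17 was −0.12 at 16 h and −0.04 at 168 h, against 0.02 and 0.09 over all genes tested.

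Dnah8 and Glo1 share sequence with 1700097N02Rik. Dnah8, which encodes an axonemal dynein heavy chain, lies on the opposite strand. Several of its transcripts point away from 1700097N02Rik, the nearest from a start 30 bases beyond that of the lncRNA, and cover none of its exons. Another begins inside the lncRNA gene, 2551 bases from the lncRNA start, and covers 207 of its 845 exon bases. Glo1, which encodes the methylglyoxal-detoxifying enzyme glyoxalase 1, has a transcript that starts 34 bases downstream on the same strand and shares 90 of the 124 bases of the first exon. The libraries kept strand, so Dnah8 reads can be told from those of the lncRNA, but the quantification could have split reads between Glo1 and 1700097N02Rik, whose values are uncertain in that respect.
The 3 genes of this locus behaved differently. At 0 h Dnah8 read 2.17, 2.39 and 5.91 TPM, highest in the third library as 1700097N02Rik was. It kept 25.4% ± 4.6 (SD, n = 3) at 16 h, with no overlap, and 5.72% ± 8.4 at 168 h. The log2 change was −1.16 ± 0.22 (SE) at 16 h (limma, adjusted p = 0.00117). Dnah8 passed the filter on low values only through its 0 h libraries, so a call could only be lower and this p carries little weight. Glo1, at 164.8 ± 10.6 TPM (SD, n = 3), kept 85.5% ± 6.1 at 16 h and 47.5% ± 1.5 at 168 h, so the gene that shares the first exon declined slowly while the lncRNA reached 0.

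Next to Rasgrp2, Nrxn2, a neurexin gene on the same strand that begins 3515 bases beyond the end of Rasgrp2, had a course of the same shape at a lower level. It stood at 4.85 ± 1.23 TPM (SD, n = 3) at 0 h, 6.32 ± 1.78 at 16 h and 4.27 ± 0.68 at 24 h, and fell to 1.49 ± 0.27 at 48 h and 0.162 ± 0.196 at 168 h. Its step from 24 to 48 h was −1.08 ± 0.18 (SE; limma, adjusted p = 1.15e-04), 1 of the 17 neighbours called lower at that step. XEN cells listed Nrxn2 at 0. Pygm, the muscle glycogen phosphorylase gene that ends 881 bases before Rasgrp2, stood at 3.19 ± 0.53 TPM at 0 h and 2.57 ± 0.85 at 168 h, which overlap. No exon base of Nrxn2 or Pygm is shared with Rasgrp2. The neighbours described here were picked out for their calls or for lying next to a member.

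**Figure D4:**
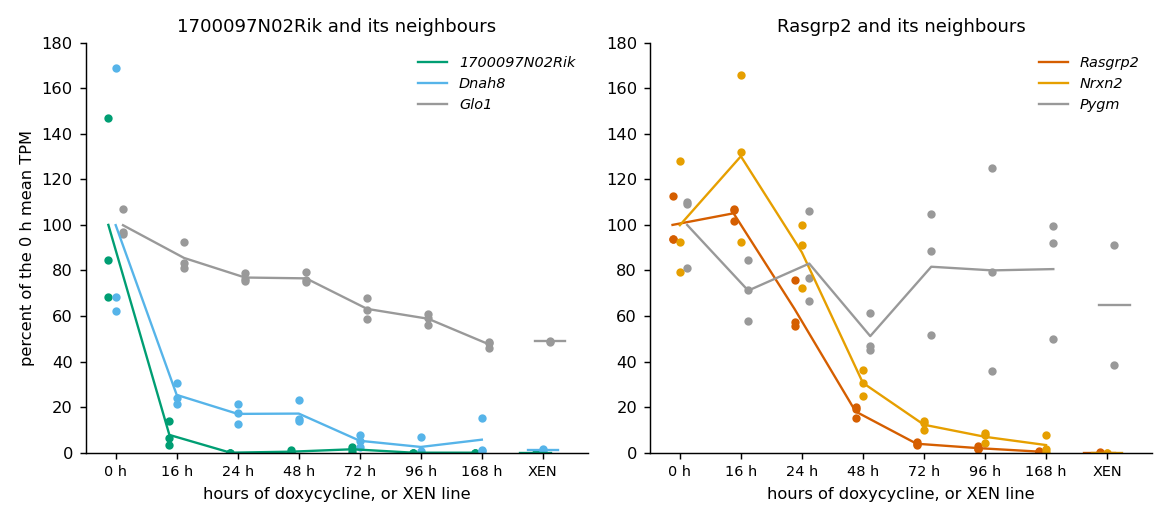
Percent of the 0 h mean TPM (y axis) by hours of doxycycline or in the XEN line (x axis) for 1700097N02Rik with Dnah8 and Glo1 (left) and for Rasgrp2 with Nrxn2 and Pygm (right). Points are libraries, lines join group means and short bars are XEN means. Dnah8 kept 25.4% at 16 h and Glo1 85.5%, and Nrxn2 was at 30.6% at 48 h, when Rasgrp2 was at 18.1%.

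The genes around thyrotropin-releasing hormone were listed in 12 members, covering its processing, receptors and breakdown, of which 7 passed the filter. None was called at 16 h in either direction. At 168 h 0 were called lower and 4 higher (57.1% of the 7), where 16.5% and 22.6% of all genes were, with a median log2 change of 1.45 against 0.09 over all genes. These were the convertase gene Furin (2.42 ± 0.08 SE), the amidating enzyme gene Pam (1.5 ± 0.13), Qpctl, which forms pyroglutamate ends (1.91 ± 0.14), and the carboxypeptidase gene Cpe (1.45 ± 0.28). All 4 serve many other precursors too. The convertase genes Pcsk1 and Pcsk2 did not pass the filter. Their means were at most 0.118 and 0.0541 TPM at 0, 16, 48 and 168 h and in XEN cells. The receptor gene Trhr was listed at 0 at 0, 16, 48 and 168 h and in XEN cells, and Trhr2 had a mean of at most 0.223 TPM, in XEN cells, so receptor transcripts were at or near 0 in these cells.

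The RAP1 list of 26 genes around Rasgrp2 had 22 that passed the filter. At 16 h 0 were called lower and 1 higher, Rap2c. At 168 h 6 were lower (27.3%, against 16.5% of all genes) and 10 higher (45.5%, against 22.6%), with a median log2 change of 0.80 against 0.09 over all genes. The 6 held other exchange factor genes. These were Rasgrp4 from 6.47 to 1.06 TPM, Rapgef3 from 4.41 to 0.808 TPM and Rapgef5 from 10.4 to 0.698 TPM. The rest were the GTPase activator gene Sipa1l2, the RAP1 effector gene Radil and Arap3. Among the 10 were the GTPase genes Rap1b (62.5 to 133 TPM), Rap2a (6.03 to 33.6 TPM) and Rap2b (6.11 to 20.9 TPM), the exchange factor genes Rapgef2 and Rapgef6, the GTPase activator gene Rap1gap (12.7 to 63.4 TPM), and Tln1 (30.4 to 90.6 TPM), which encodes the integrin activator talin. The exchange factor with the highest level at 0 h in this list was Rapgef1, at 31.1 TPM, so Rasgrp2 at 337 ± 36.9 TPM (SD, n = 3) stood above every other exchange factor gene listed, and at 168 h, at 1.61 ± 0.91 TPM, it was below Rapgef1 at 26.7 TPM. Both places of Rasgrp2 follow in part from the choice. A fall as large as its own on the log2(TPM + 1) scale needs a high start and a low end.

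The genes with the most similar course were found by Pearson correlation of log2(TPM + 1) over the 23 libraries, which share the same groups, so that many genes correlate closely. For Trh they were Tex21, Cobl, Cpsf4l, Zfp57 and Olig2, with r from 0.9912 to 0.9946, and 1108 genes exceeded 0.9. For Rasgrp2 they were Zfp988, Krt42, Gm3952, Snrpn and Nup210, with r from 0.9919 to 0.9937, and 1281 genes exceeded 0.9. Krt42, at 143 TPM at 0 h, 118 at 16 h and 0.193 at 168 h, shows the late and deep course. The lncRNA genes had fewer close companions. For 1700097N02Rik these were Ttn, Tgm3, Gad1, Nlrc4 and Cbx3-ps8, with r from 0.9569 to 0.9863, and 36 genes exceeded 0.9. The genes close to Gm26564 included Foxd3, Zmat4, Sp5 and Dgkeos, with r from 0.9513 to 0.9614, and 87 genes exceeded 0.9. Foxd3, a forkhead factor gene of ES cells, read 14.3 TPM at 0 h and 1.8 TPM at 16 h. Among the members, r was highest between Trh and Rasgrp2 (0.92) and between the lncRNA genes (0.91), and lowest between 1700097N02Rik and Rasgrp2 (0.52).

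Whether Oct4 acts on these genes in induced cells could be asked of Rasgrp2 only. In libraries 1 to 6 of siCTL it read 4.18, 4.59, 2.54, 0.416, 25.2 and 21.5 TPM, and in those of siOct4 it read 5.85, 8.92, 1.14, 1.84, 5.08 and 15.2 TPM. The groups overlapped over most of their range, and 3 of the 6 same-numbered pairs were lower with siOct4. The mean difference was −0.18 ± 0.67 (SE) on the log2(TPM + 1) scale (limma over 6264 genes, adjusted p = 0.938), with single pairs between −2.11 and 1.00. A two-sided exact permutation test over the libraries gave p = 0.827 and a paired exact sign-flip test p = 0.781, where the smallest possible values were 0.00216 and 0.0312. The sign turned when either of siCTL libraries 5 and 6 or either of siOct4 libraries 3 and 4 was left out, with differences from 0.03 to 0.22, so the data give no direction. The 95% interval of the difference ran from −1.616 to 1.257 without pairing. In the fit with a replicate block it ran from −0.995 to 0.635 (SE 0.366, limma adjusted p = 0.809). That SE is moderated over all genes and leaves out the likeness of consecutive libraries. The 6 pair differences of Rasgrp2 had an SD of 1.17, and averages of consecutive libraries gave −0.16 ± 0.81 (SE). The block interval may therefore be too narrow. The knockdown itself was plain, with Pou5f1 at 782 to 1194 TPM in siCTL and 282 to 387 TPM in siOct4, lower in 6 of 6 pairs. In the same fit, without pairing, 1.72% of genes were called lower and 0.942% higher, at an adjusted p under 0.05 and a log2 change past 0.5. With the replicate number as a block these shares were 6.15% and 2.43%.

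Rasgrp2 varied widely between the siRNA libraries of each group. Its highest value was 60.7 times its lowest in siCTL and 13.4 times in siOct4. The first ratio rests on siCTL library 4, without which it is 9.93. That library also had the highest PrE marker sum of siCTL, 7073 TPM against 2468 to 4079, and the lowest ES marker sum, 6800 TPM against 9541 to 14112. The libraries 5 and 6 were the highest of siCTL for Rasgrp2 and also for Nanog, at 30.7 and 27.2 TPM against 2.53 to 9.15 TPM in the others, and for Esrrb, at 58.5 and 51.5 TPM against 3.77 to 26.4 TPM. With siOct4 they were the highest for Nanog too, at 33.1 and 32.6 TPM, although Rasgrp2 was high in library 6 and not in library 5. The ES marker sums of libraries 5 and 6, of which Nanog and Esrrb make up a small part, went another way. They were 9541 and 9941 TPM in siCTL, below the 11251 to 14112 TPM of libraries 1 to 3. In siOct4 they were 5351 and 5562 TPM, the lowest of that group, and the fibroblast marker sums were its highest, 213.5 and 191.3 TPM. Libraries numbered 1 and 2, 3 and 4 or 5 and 6 within a group had correlations of log2(TPM + 1) of 0.978 to 0.990 apart from siCTL libraries 3 and 4 at 0.938, above the 0.929 to 0.968 of the 24 other pairs within a group. They may share a day or culture, which the labels do not state. The part of these differences in the Rasgrp2 result was not tested. At 48 h of the induction without siRNA, Rasgrp2 had a mean of 60.9 TPM, and in siCTL cells after the same time of Dox 9.75 TPM. The siRNA cells were also nucleofected and plated directly into medium with Dox. These values come from separate experiments and are given side by side, and the source of the gap was not tested.

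**Figure D5:**
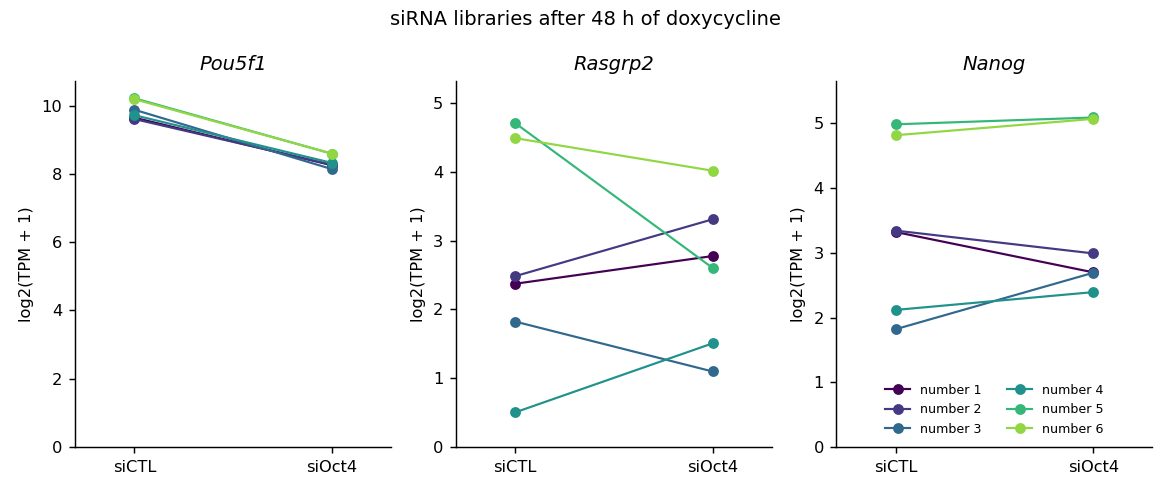
Level as log2(TPM + 1) (y axis, starting at 0) of Pou5f1, Rasgrp2 and Nanog in each siCTL and siOct4 library after 48 h of Dox (x axis), with same-numbered libraries joined by a line. Pou5f1 was lower with siOct4 in 6 of 6 pairs and Rasgrp2 in 3 of 6, and the pairs numbered 5 and 6 were highest for Nanog.

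Of the 12 genes around thyrotropin-releasing hormone 4 were in the siRNA table, of the RAP1 list 14 and of the neighbours 4. Without pairing, limma called 0 of these with siOct4, where 1.72% of all genes were lower and 0.942% higher (2 of them at an unadjusted p under 0.05). With the replicate block, where 6.15% were lower and 2.43% higher, 1 was called, the neighbour Prickle2 of Trh (−0.80 ± 0.18 SE; limma, adjusted p = 0.0201).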

How the data were processed

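RNA-seq was measured in 23 induction libraries and 12 siRNA libraries. The authors made stranded polyA libraries, used STAR (mm10) for alignment and RSEM for gene values, removed outliers found by principal component analysis and deposited TPM values, without stating the outliers. Tool versions and the annotation are not given in the sources used here. Their group means and their classes of response were not used, and 0 columns of per-sample values were left out. The siRNA table holds only genes that the authors called responsive. The study describes its replicates as independent. Groups and replicate numbers came from sample titles.

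The members, and the gene lists around them, were chosen with earlier results of these data known. Log2(TPM + 1) values of genes averaging 1 TPM or more in some group were fitted with limma 3.58.1 (R 4.3.3; eBayes with trend and robust options, Benjamini-Hochberg adjustment), with 1 coefficient per group. Calls needed an adjusted p under 0.05 and an absolute log2 change above 1, or above 0.5 in the siRNA table. Of 60 symbols on several rows the highest row was kept. On simulated data the test of 48 h against 24 h recovered 97% of falls of 1.5 and 100% of falls of 3 among 15057 genes, and the siRNA test 68% of falls of 1 and 97% of falls of 2 among 6264, with 1 and 11 false calls. The simulation drew every library independently and lowered only genes of higher level. It leaves out the likeness of same-numbered and of consecutive siRNA libraries. Its rates therefore need not hold for the siRNA data, nor for Rasgrp2, whose SE there was 0.67. Besides the members, the text names Pou5f1 and Gata6, called genes of the lists, the 5 genes closest to each member in course and the 3 next in each ranking. An item that this rule names is not reported here. Nanog, Esrrb, Glo1, Pygm and the other list genes with values were added after their values were seen.

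Same-numbered siRNA libraries deviated together (correlations of deviations from the group means 0.236 to 0.707 in the 6 pairs, mean 0.328, against −0.064 for other numbers). The numbers were therefore treated as pairs, which the labels do not state. The study itself used a paired test for endogenous Gata6 over 6 independent knockdowns, without saying which libraries form a pair. The pair numbered 3 gave the 0.707, and the remaining pairs gave at most 0.274. All other numbers were pooled, so likeness by number was not separated from that of consecutive libraries. The siRNA values are from a fit without a block unless stated. With the number as a replicate block, 537 genes were called in place of 167, and Rasgrp2 differed by −0.18 (adjusted p = 0.809). Positions are from GENCODE M21 and promoters from RefSeq (GRCm38.p6), in which all 4 symbols were found.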

Additional observations from a re-analysis of the deposited data

How the results depend on the processing

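The calls of Trh and Rasgrp2 at the steps from 24 to 48 h and from 48 to 72 h, and that of Rasgrp2 against XEN cells, held under a replicate block, median-of-ratios rescaling, a pseudocount of 0.1, no filter, a filter at 5 TPM, a fit of the compared groups alone and without each library. With a pseudocount of 0.1 the Trh difference between XEN and 96 h cells was called (−2.95), and the falls that chose the members grew, at 16 h to −3.51 (1700097N02Rik) and −2.64 (Gm26564) and at 168 h to −8.83 (Trh), −7.75 (Rasgrp2), −5.87 (1700097N02Rik) and −6.54 (Gm26564). The Gm26564 step from 24 to 48 h ranged from −1.24 to −0.97 and the Rasgrp2 step from 72 to 96 h from −1.12 to −0.73 without single libraries.

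Counts of called genes moved more. With a pseudocount of 0.1 they were 1483, 1053, 609 for the steps to 48, 72 and 96 h against 837, 502 and 257. The step to 96 h gave 17 with the compared groups alone, and 130 to 737 without single libraries, the highest without the third 72 h library, which also took the step to 72 h to 882 (lowest 448). The siRNA count of 167 became 537 with the replicate block, 297 with rescaling (153 lower and 144 higher against 108 and 59), 602 with both, and 87 to 322 without single libraries. Rescaling moved the median of all genes in that table from −0.12 to 0.01. An average of consecutive siRNA libraries, added after the data were seen, gave 0 calls with limma (483 of 6264 genes at an unadjusted p under 0.05). Rasgrp2 with siOct4 was called under no setting, and its difference ranged from −0.63 to 0.22 without single libraries, turning to 0.22, 0.17, 0.11 and 0.03 without siCTL 5, siCTL 6, siOct4 3 and siOct4 4. The causes of these shifts were not tested. In the induction table same-numbered libraries did not deviate together (mean correlation 0.033), and a replicate block gave 841 calls for the step to 48 h and changed no member's call. Unknown read depth limits what can be said of values under 1 TPM.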
